A study of Mus musculus with 12 samples.

Results

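The glutathione S-transferases described here are 10 genes, taken as the rows of the deposited count table whose symbol is Gsta2, Gsta3, Gsta4, Gstm1, Gstm2, Gstm3, Gstm5, Gstp1, Gstt1 or Mgst1, of 53599 gene rows in all. All 10 were present and all 10 passed the filter on low counts. They were followed through 4 populations sorted from mouse liver, 3 replicates each, 12 RNA-seq libraries in total. Every mouse was labelled WT and had received AAV8-TBG-Cre, an adeno-associated virus in which the hepatocyte-active TBG promoter drives Cre recombinase, so that hepatocytes and their descendants carry EGFP. After 1 week the mice were put on a diet containing 0.1% DDC, a compound that injures bile ducts and disturbs porphyrin metabolism, and cells were taken after 8 weeks. Early cells were EGFP+ Cd24- Epcam-, intermediate cells EGFP+ Cd24+ Epcam-, full cells EGFP+ Cd24+ Epcam+, and the resident biliary epithelial cells (BEC) EGFP- Epcam+. All 4 groups share the virus and the diet, and no group from untreated liver was analysed here. The labels name no reporter allele, no age and no strain, and nothing in them says whether replicates came from separate mice, so p-values measure the spread between these libraries, which may be technical. The BEC gate rests on absence of EGFP, and any hepatocyte that escaped labelling and later gained Epcam would fall in it.

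Glutathione S-transferases join the tripeptide glutathione to electrophilic compounds, which makes them more soluble and marks them for export and further breakdown. The cytosolic enzymes fall into classes named alpha (Gsta), mu (Gstm), pi (Gstp) and theta (Gstt), and work as dimers of subunits of 1 class. Mgst1 belongs to a separate family of membrane-bound enzymes of the endoplasmic reticulum and the outer mitochondrial membrane. Hepatocytes are known as a rich source of these proteins, and several of the genes are induced through antioxidant response elements, short promoter sequences bound by the transcription factor Nrf2 (Nfe2l2).

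Close copies limit what counts per gene can say. Over coding sequences of GENCODE M21, Gsta2 was 97.6% identical to Gsta1 and Gstp1 was 98.1% identical to Gstp2. Gstm1 and Gstm3 were 89.4% identical, and Gstm2 was 85.9% identical to Gstm1. For Gsta3, Gsta4, Gstm5, Gstt1 and Mgst1 the closest transferase was under these values, at 75.3% for Gsta3 with Gsta2 and 71.1% for Gstm5 with Gstm2. The 2 closest pairs are shown over the 120 coding bases that hold the most differences, 5 for the alpha pair (bases 373 to 492) and 6 for the pi pair (bases 1 to 120), counted from the first base of the start codon. Capitals mark the letters that differ within a pair.
Gsta2: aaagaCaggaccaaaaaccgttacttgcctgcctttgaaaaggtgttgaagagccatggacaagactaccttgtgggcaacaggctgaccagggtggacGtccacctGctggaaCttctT
Gsta1: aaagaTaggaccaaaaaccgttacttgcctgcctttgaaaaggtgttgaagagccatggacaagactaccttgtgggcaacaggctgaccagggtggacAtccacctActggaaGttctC
Gstp1: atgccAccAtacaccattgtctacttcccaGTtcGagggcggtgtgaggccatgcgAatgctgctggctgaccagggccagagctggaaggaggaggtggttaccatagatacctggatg
Gstp2: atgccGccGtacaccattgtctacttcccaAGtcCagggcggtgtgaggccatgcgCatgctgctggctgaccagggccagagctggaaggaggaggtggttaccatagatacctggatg
Of all stretches of 100 bases in the longest transcript, 35.0% of those of Gsta2 and 52.8% of those of Gstp1 also occur in a transcript of another gene, Gsta1 and predicted alpha genes for Gsta2, and Gstp2 and a pi pseudogene for Gstp1. The share was 13.8% for Gstm3, 7.73% for Gstm1 and 0.622% for Gstm2, and 0 for Gsta3, Gsta4, Gstm5, Gstt1 and Mgst1. For stretches of 50 bases it was 64.2% for Gsta2, 62.3% for Gstp1, 28.8% for Gstm3, 23.1% for Gstm1 and 9.36% for Gstm2, and again 0 for the other 5. The read length is not given in the sources used here. How the authors treated reads that match several genes is not given in the sources used here, so the levels of Gsta2, Gstp1, Gstm3, Gstm1 and Gstm2 are uncertain by the reads that such stretches attract or lose.

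The sort markers followed their gates. Cd24a averaged 3.20 ± 2.16 CPM in early, 444.0 ± 75.8 in intermediate, 1074 ± 128 in full and 1073 ± 200.5 in the BEC group, and Epcam 0.592 ± 0.250, 18.8 ± 7.24, 254 ± 41.1 and 866 ± 35.6 (SD, n = 3 each), where CPM is a count scaled to a common library size. Total counts ran from 15112893 to 19731887 per library. The mitochondrial share of counts was 7.63% ± 3.31 in early, 4.27% ± 0.416 in intermediate, 2.33% ± 0.141 in full and 2.88% ± 0.470 in the BEC group (SD, n = 3 each). Summed over 8 hepatocyte markers, levels ran from 101763 to 109447 CPM in early libraries, from 17127 to 23323 in intermediate, from 3995 to 5437 in full and from 2335 to 3018 in BEC. Summed over 8 biliary markers they ran from 984 to 1924, 9327 to 12199, 11736 to 14941 and 14408 to 17568 CPM in the same order, but Spp1 made up most of that sum (mean 9866 CPM in intermediate and 12144 in BEC). Other biliary markers lay far lower in intermediate than in BEC, with means of 2.21 and 593 CPM for Krt19 and 3.44 and 388 for Krt7. The other cell types were marked more weakly. The 7 macrophage markers summed to between 24.1 and 25.6 CPM in early and between 133 and 153 in BEC. Of these, Csf1r averaged 3.94 CPM in early and 126.7 in BEC, while Cd68 averaged 13.96 and 3.46 and each of the other 5 stayed at a mean of at most 4.60 CPM in every group. In sum over all libraries, the 7 stellate cell and fibroblast markers gave between 44.8 and 272 CPM and the 6 endothelial markers at most 20.6 CPM. The 6 lymphoid and erythroid markers summed to at most 0.377 CPM, with Ms4a1 at 0 counts in every group. Xist had between 2 and 10 counts and Ddx3y between 976 and 1556, so the libraries carry male transcripts, and hepatic transferase levels are known to differ between male and female mice.

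Transferase transcripts were abundant in early cells and most fell along the stages. Gstm5 rose at the first step, and Gstm2 did not pass the test at the second. The 10 genes together held 1.22% ± 0.0512 of all counts in early, 0.391% ± 0.0199 in intermediate, 0.167% ± 0.0108 in full and 0.129% ± 0.00577 in the BEC group (SD, n = 3 each), with no overlap between any of the groups. In intermediate against early, 9 of the 10 genes fell and 1 (Gstm5) rose by edgeR's quasi-likelihood test at an adjusted p under 0.05. Among all 16210 genes tested, 54.4% were called in that comparison, 25.7% lower and 28.7% higher. In full against intermediate 8 of 10 fell, against 19.8% of all genes, and none rose, against 20.8%, with 40.7% called in either direction. In BEC against full 3 of 10 were lower (Gstm1, Gstp1 and Gstt1), against 10.6% of all genes, and none was higher, against 10.7%, with 21.3% called in either direction. In full against early 9 fell and Gstm5 rose, against 32.1% lower and 39.1% higher among all genes and 71.2% in either direction. Of these falls, that of Gstt1 turned into a rise from early to intermediate, and into a difference of 0.11 from early to full, when libraries were scaled by total counts only (values with Gstt1). All 10 differed over the 4 groups, as did 75.6% of all genes. On the log2 scale, the 10 genes had median fold changes of -1.64, -1.32 and -0.22 at the 3 successive comparisons, where the median over all genes was 0.06, 0.01 and 0.00. In sorted bulk samples, fewer cells that hold a transcript and less of it per cell cannot be told apart. The 8 hepatocyte markers fell in 8 of 8 cases at both of the first steps, with medians of -1.98 and -2.03, and the part of remaining hepatocyte RNA in the transferase levels was not tested.

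**Figure D1:**
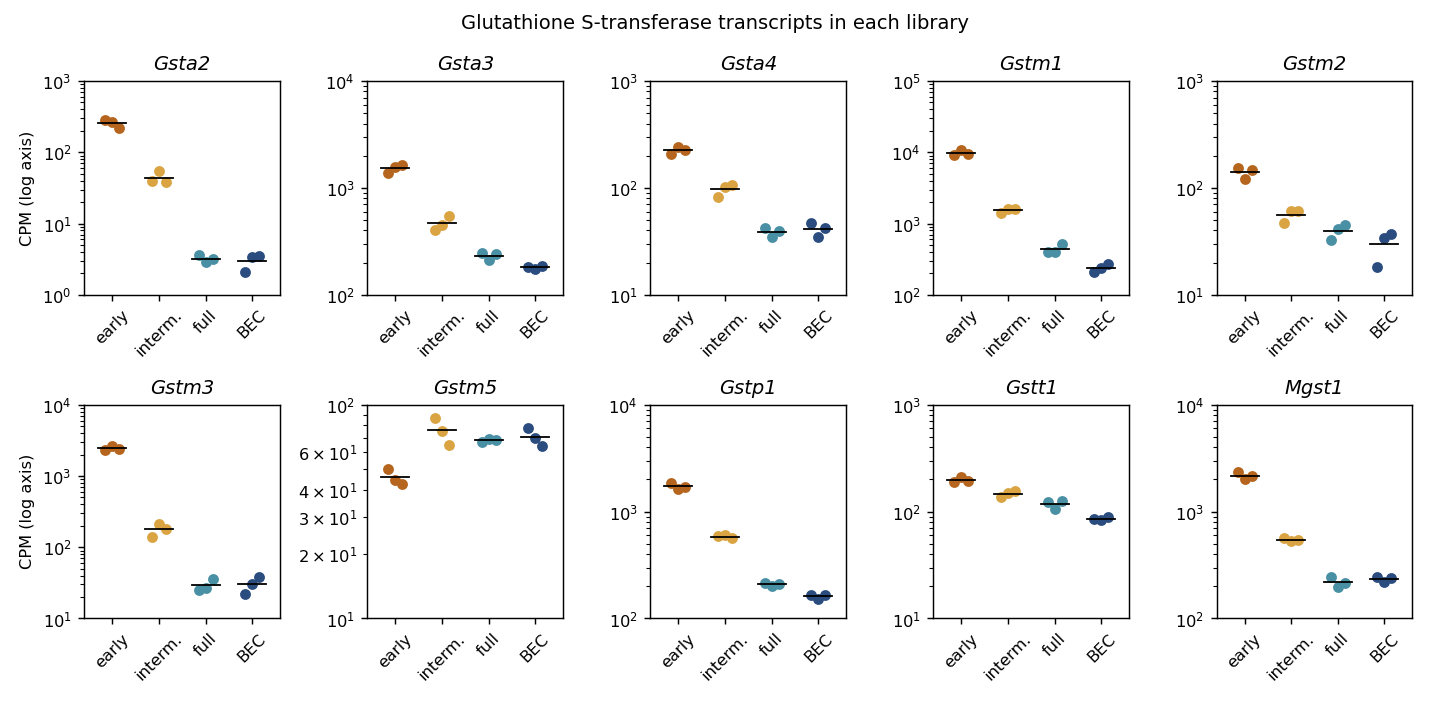
CPM (TMM scaling; with total counts Gstt1 is higher in intermediate than in early) of the 10 transferase genes in every library (points, log axis, 3 libraries per group) with the group mean as a bar. Except in Gstm5, the 3 early libraries lie above the 9 others for each gene, and in Gstm5 they lie below them.

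The mu class held the single rise and some of the steepest falls. Gstm1, the main mu subunit of mouse liver, had 9308, 10825 and 9313 CPM in the early libraries, 1400, 1621 and 1615 in intermediate, 393, 402 and 514 in full and 211, 235 and 267 in BEC. No group overlapped another. It fell 6.35-fold from early to intermediate (log2 fold change -2.67, SE 0.15, adjusted p 7.92e-09 in edgeR) and 3.54-fold from intermediate to full (-1.82, SE 0.14, adjusted p 4.63e-07 in edgeR). It was 1.84-fold lower again in BEC (-0.88, SE 0.14, adjusted p 0.000396 in edgeR). Gstm3, a close relative of Gstm1, had 2303, 2609 and 2384 CPM in early, 139, 211 and 183 in intermediate, 25.0, 26.7 and 36.3 in full and 22.2, 30.3 and 38.7 in BEC. Its full and BEC libraries overlapped. It fell 13.7-fold at the first step (log2 fold change -3.77, SE 0.22, adjusted p 1.36e-08 in edgeR) and 6.06-fold at the second (-2.60, SE 0.21, adjusted p 6.76e-07 in edgeR), so that full cells had 82.9-fold less than early cells (-6.37 on the log2 scale, and -5.51 with libraries scaled by total counts only). BEC did not differ from full beyond the spread (0.05, SE 0.20, adjusted p 0.907 in edgeR). The count ratio of Gstm1 to Gstm3, in which library scaling cancels, was 4.03 ± 0.122 in early, 8.86 ± 1.20 in intermediate, 14.98 ± 0.759 in full and 8.05 ± 1.34 in the BEC group (SD, n = 3 each). Gstm3 thus fell more than Gstm1 up to the full stage, and the BEC ratio lay below that of full without overlap.

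Gstm2 changed less. It had 152, 122 and 147 CPM in early, 46.6, 60.4 and 60.2 in intermediate, 32.5, 41.1 and 45.4 in full and 18.1, 33.7 and 37.1 in BEC, where replicate 1 was low. It fell 2.52-fold at the first step (log2 fold change -1.33, SE 0.22, adjusted p 0.000136 in edgeR). At the second step it was lower in full without passing the test (-0.49, SE 0.21, adjusted p 0.0837 in edgeR), although the groups did not overlap, and with the replicate number as a block it did pass (-0.50, edgeR adjusted p 0.0274). It also passed with no filter on low counts (edgeR adjusted p 0.00745), with only the 6 libraries compared (edgeR adjusted p 0.0236), or once BEC replicate 1 was left out (edgeR adjusted p 0.0135). BEC and full overlapped (-0.42, SE 0.22, adjusted p 0.215 in edgeR), and the value was -0.16 without BEC replicate 1.

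Gstm5 went the other way. It had 50.1, 44.4 and 42.6 CPM in early, 87.1, 75.6 and 65.0 in intermediate, 66.6, 69.3 and 68.4 in full and 78.1, 70.2 and 64.4 in BEC. All 9 later libraries were above the 3 early ones, and the 3 later groups overlapped. The rise at the first step was 1.66-fold (log2 fold change 0.73, SE 0.11, adjusted p 9.32e-05 in edgeR) and larger with total counts only (1.40), with no further call from intermediate to full (-0.16, SE 0.11, adjusted p 0.285 in edgeR) or from full to BEC (0.06, SE 0.11, adjusted p 0.788 in edgeR). The count ratio of Gstm1 to Gstm5 was 216 ± 29.1 in early, 20.8 ± 4.43 in intermediate, 6.41 ± 0.966 in full and 3.39 ± 0.724 in the BEC group (SD, n = 3 each), without overlap between groups.

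These 4 mu genes form 1 cluster with Gstm4, Gstm6 and Gstm7 on chromosome 3, in the order Gstm5, Gstm7, Gstm6, Gstm3, Gstm2, Gstm1 and Gstm4 in RefSeq's GRCm38.p6, with no other protein-coding gene between them. Gstm5 lies at 1 end and is transcribed from the opposite strand to its neighbours. In full against early the log2 fold changes along the cluster were 0.58 for Gstm5, -2.57 for Gstm7, -2.49 for Gstm6, -6.37 for Gstm3, -1.83 for Gstm2, -4.49 for Gstm1 and -3.66 for Gstm4. Gstm5 rose and the other 6 fell by edgeR's test (largest adjusted p 0.000412, that of Gstm5). The 250 bases before the transcript start are shown for the gene that rose and for the 2 mu genes that fell most, from RefSeq's GRCm38.p6 table, a build older than the GRCm39 named for the reads. Capitals mark the antioxidant response element core TGACNNNGC, the AP-1 site TGANTCA and the TATA box core TATAAA, each searched on both strands, and no matches in the printed stretches overlap. For Gstm1, the second of 2 listed starts is shown.
Gstm5 (chr3:107895604-107895853, plus strand): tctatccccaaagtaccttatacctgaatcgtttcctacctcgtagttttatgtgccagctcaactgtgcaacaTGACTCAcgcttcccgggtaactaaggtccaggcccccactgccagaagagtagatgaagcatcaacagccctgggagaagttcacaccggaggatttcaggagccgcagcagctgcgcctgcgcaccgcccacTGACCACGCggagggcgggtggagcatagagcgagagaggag
Gstm1 (chr3:108017819-108018068, minus strand): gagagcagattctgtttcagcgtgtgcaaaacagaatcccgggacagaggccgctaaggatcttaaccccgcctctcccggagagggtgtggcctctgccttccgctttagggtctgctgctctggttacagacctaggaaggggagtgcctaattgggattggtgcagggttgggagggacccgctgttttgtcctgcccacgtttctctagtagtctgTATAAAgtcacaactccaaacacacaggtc
Gstm3 (chr3:107969175-107969424, minus strand): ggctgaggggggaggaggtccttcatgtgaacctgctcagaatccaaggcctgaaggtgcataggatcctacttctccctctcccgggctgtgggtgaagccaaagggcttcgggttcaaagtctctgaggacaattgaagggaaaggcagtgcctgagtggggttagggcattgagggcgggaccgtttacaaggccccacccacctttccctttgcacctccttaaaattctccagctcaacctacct
The Gstm5 stretch held an element core, TGACCACGC, starting 42 bases before the transcript start, and an AP-1 site 176 bases before it. The Gstm1 stretch held a TATA box core 30 bases before the start, and none of the 3 motifs was found in that of Gstm3. A match is a description of letters and not of a bound site.

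**Figure D2:**
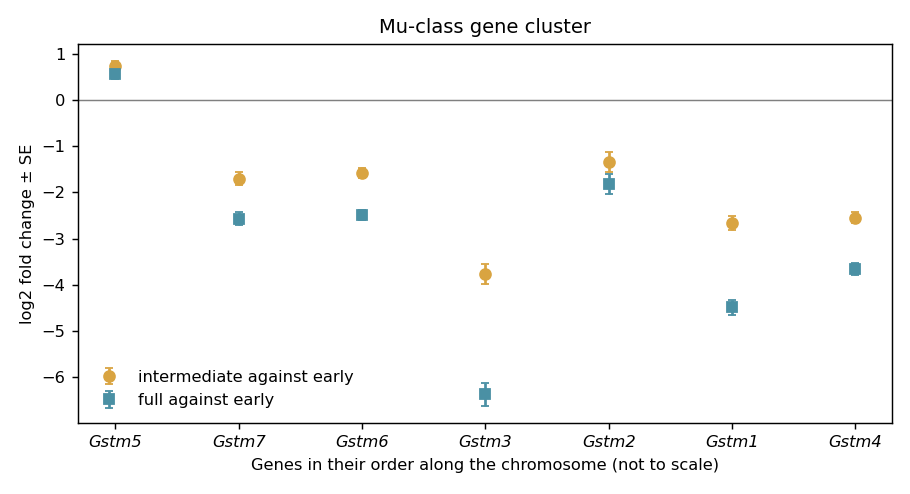
log2 fold change (edgeR, bars are SE) of the 7 mu-class genes in chromosome order, for intermediate against early (circles) and full against early (squares). Gstm5 lies above 0 and the other 6 genes lie below it in both comparisons, with Gstm3 lowest.

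All 3 alpha genes fell at both of the first steps, and none was called between full and BEC. Gsta2, an inducible alpha subunit, had 281, 265 and 222 CPM in early, 40.0, 54.1 and 37.8 in intermediate, 3.62, 2.85 and 3.15 in full and 2.12, 3.40 and 3.47 in BEC. Of its steps, the second had the larger value. It fell 5.81-fold from early to intermediate (log2 fold change -2.54, SE 0.16, adjusted p 3.00e-08 in edgeR) and 13.7-fold from intermediate to full (-3.77, SE 0.19, adjusted p 2.23e-08 in edgeR), and BEC overlapped full (-0.09, SE 0.22, adjusted p 0.830 in edgeR). With the counts of Gsta1 and Gsta2 added together, these values were -2.65, -3.47 and -0.16. The predicted alpha genes that share stretches with Gsta2 were not added. Reads that match several genes may be missing from both rows, so the sum does not settle the effect of copies. Gsta3, known in mice for conjugating the epoxide of aflatoxin, had 1389, 1565 and 1645 CPM in early, 408, 449 and 548 in intermediate, 244, 209 and 239 in full and 184, 176 and 187 in BEC. It fell 3.27-fold and then 2.03-fold (log2 fold changes -1.71, SE 0.12, and -1.02, SE 0.12, adjusted p 7.31e-08 in edgeR and 1.46e-05). BEC lay below full in all libraries without passing the test (-0.34, SE 0.12, adjusted p 0.0559 in edgeR), and passed it with the replicate block (edgeR adjusted p 0.0201). It also passed with DESeq2 (adjusted p 0.0322), with total counts only (edgeR adjusted p 0.0479), with no filter on low counts (edgeR adjusted p 0.0281), with only the 6 libraries compared (edgeR adjusted p 0.00838), and without early replicate 1, intermediate replicate 1 or intermediate replicate 3 (largest edgeR adjusted p 0.0431).

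Gsta4 acts on 4-hydroxynonenal, a product of lipid peroxidation. It had 210, 241 and 228 CPM in early, 82.5, 101 and 106 in intermediate, 42.5, 34.7 and 39.7 in full and 46.8, 34.8 and 42.0 in BEC. It fell at the first 2 steps, 2.34-fold (log2 fold change -1.22, SE 0.13, adjusted p 2.27e-06 in edgeR) and 2.48-fold (-1.31, SE 0.13, adjusted p 2.80e-06 in edgeR). With total counts only these values were -0.56 and -1.11. BEC overlapped full (0.08, SE 0.13, adjusted p 0.741 in edgeR). The ratio of Gsta2 to Gsta3 counts was 0.169 ± 0.0336 in early, 0.0959 ± 0.0258 in intermediate, 0.0139 ± 0.000872 in full and 0.0165 ± 0.00431 in the BEC group (SD, n = 3 each), so the alpha genes did not fall in proportion.

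Gstp1, the pi-class enzyme that is high in male mouse liver, had 1855, 1626 and 1714 CPM in early, 587, 602 and 562 in intermediate, 215, 201 and 208 in full and 166, 153 and 164 in BEC. It varied little between replicates, with a coefficient of variation of 3.31% to 6.66% over the groups. It fell 2.97-fold at the first step (log2 fold change -1.57, SE 0.09, adjusted p 1.23e-08 in edgeR) and 2.80-fold at the second (-1.49, SE 0.09, adjusted p 7.84e-08 in edgeR), and was 1.29-fold lower in BEC than in full (-0.37, SE 0.09, adjusted p 0.00774 in edgeR). Its copy Gstp2 held 229 to 264 counts in early libraries, where Gstp1 held 17880 to 23450. With both added together the 3 values were -1.57, -1.50 and -0.37. The pi pseudogene was not added, and reads that match several genes may be missing from both rows. The 250 bases before the start of Gstp1 are shown with the AP-1 site TGAGTCA, which starts 74 bases before the transcript start, in capitals.
Gstp1 (chr19:4037913-4038162, minus strand): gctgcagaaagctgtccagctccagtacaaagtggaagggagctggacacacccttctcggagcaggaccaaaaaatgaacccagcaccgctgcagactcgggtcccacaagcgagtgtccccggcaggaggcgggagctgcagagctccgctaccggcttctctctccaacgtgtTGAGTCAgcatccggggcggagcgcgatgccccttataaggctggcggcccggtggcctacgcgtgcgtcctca

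Mgst1, the membrane-bound enzyme, had 2332, 2000 and 2145 CPM in early, 570, 527 and 540 in intermediate, 242, 199 and 215 in full and 243, 220 and 237 in BEC. It fell 3.96-fold at the first step (log2 fold change -1.98, SE 0.11, adjusted p 5.90e-09 in edgeR) and 2.49-fold at the second (-1.32, SE 0.10, adjusted p 5.05e-07 in edgeR). BEC and full overlapped (0.09, SE 0.10, adjusted p 0.624 in edgeR). Its upstream stretch, for the first of 2 listed starts, holds the antioxidant response element core on the reverse strand, marked in capitals, starting 56 bases before the transcript start.
Mgst1 (chr6:138140277-138140526, plus strand): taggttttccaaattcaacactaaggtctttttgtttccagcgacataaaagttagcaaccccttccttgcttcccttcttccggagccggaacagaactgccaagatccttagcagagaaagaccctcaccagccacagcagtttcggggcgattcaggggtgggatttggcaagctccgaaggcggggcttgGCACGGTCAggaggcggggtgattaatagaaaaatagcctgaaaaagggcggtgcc
Of the 10 genes, 9 had upstream sequence in the table, with 11 starts in all. The element core occurred in 3 of these 11 stretches (Gsta3, Gstm5 and the first start of Mgst1), and in 10.2% of 32544 upstream stretches of the same length. The bases after the listed Gsta3 start were not found in a GENCODE M21 transcript of that gene, so this start is less certain. Gsta3 and Mgst1 fell and Gstm5 rose. The AP-1 site occurred in 2 of the 11 (Gstm5 and Gstp1) and in 6.73% of all stretches, and the TATA box core in 2 of the 11 (Gsta2 and the second start of Gstm1) and in 12.3%. The Gsta2 match was on the reverse strand, 246 bases before the start, and the Gstm1 match on the forward strand, 30 bases before it.

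Gstt1, a theta-class enzyme that acts on small halogenated compounds, had the smallest fold change from early to full among the 9 genes that fell. It had 190, 209 and 195 CPM in early, 138, 149 and 155 in intermediate, 122, 106 and 124 in full and 85.5, 82.8 and 89.1 in BEC, with no overlap between groups. The log2 fold changes were -0.42 (SE 0.09, adjusted p 0.00107 in edgeR), -0.33 (SE 0.09, adjusted p 0.00865 in edgeR) and -0.45 (SE 0.09, adjusted p 0.00195 in edgeR) at the 3 steps. The direction of the first depends on scaling. CPM here uses TMM factors, which set the bulk of genes level between libraries. A difference in total RNA per cell was not measured. With total counts only, the all-gene median between intermediate and early moved from 0.06 to 0.72 and that between full and early from 0.14 to 1.005, so falls from early are smaller and rises larger on that scale. Gstt1 was then higher in intermediate (0.24, edgeR adjusted p 0.0196), and 2 of the 10 genes rose and 8 fell. The share of all calls that were lower was 47.2% with TMM factors and 14.4% with total counts only. For full against intermediate these shares were 48.8% and 27.4%, and Gstt1 did not pass when scaled by total counts (-0.13, edgeR adjusted p 0.233) or without full replicate 2 (-0.26, edgeR adjusted p 0.0556). For full against early the shares were 45.1% and 18.2%. The other 9 genes kept the direction of their calls at both of the first steps with total counts only, and between BEC and full the 2 scalings gave nearly the same values.

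**Figure D3:**
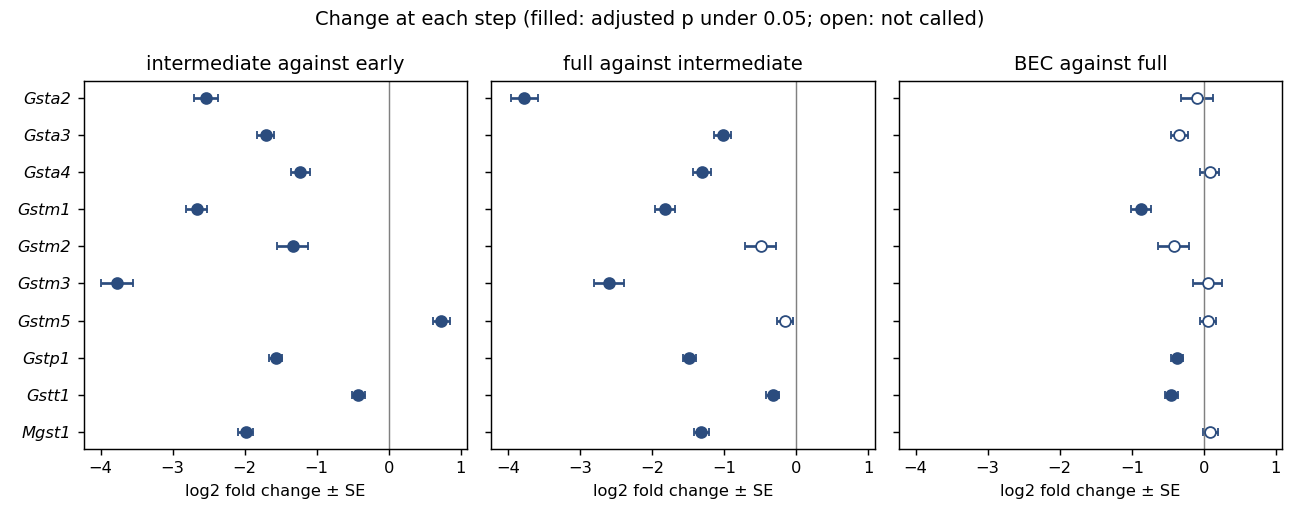
log2 fold change of each transferase gene at the 3 successive comparisons (edgeR, bars are SE, filled points have an adjusted p under 0.05). Scaling is by TMM, and with total counts Gstt1 lies right of 0 in the first panel. In the first 2 panels most points lie well left of 0, and in BEC against full the points lie between -0.88 and 0.09.

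The make-up of the transferase pool changed along with its size. Levels were compared between genes as CPM per kilobase of the longest GENCODE M21 protein-coding transcript. On this scale the 10 genes summed to 15366 ± 605 in early, 3250 ± 159 in intermediate, 1219 ± 82.2 in full and 954 ± 40.1 in the BEC group (SD, n = 3 each). Gstm1 supplied 49.5% ± 2.44 of that sum in early, 36.8% ± 1.24 in intermediate, 27.7% ± 2.85 in full and 19.3% ± 1.76 in BEC. Gstm3 went from 12.1% ± 0.387 in early to 1.83% ± 0.282 in full. The share of Gstp1 went from 13.8% ± 1.33 in early to 20.5% ± 0.737 in BEC, that of Mgst1 from 12.1% ± 1.30 to 20.9% ± 0.957, that of Gstt1 from 1.16% ± 0.0238 to 8.14% ± 0.0581 and that of Gstm5 from 0.315% ± 0.0316 to 7.89% ± 0.983 (SD, n = 3 each). These shares add up to a whole, so a fall in 1 gene raises the others.

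The order of levels per kilobase in early was Gstm1, Gstp1, Gstm3, Mgst1, Gsta3, Gsta2, Gsta4, Gstt1, Gstm2 and Gstm5. Gstp1, Gstm3 and Mgst1 overlapped in that group, and all other neighbours were separate. In BEC the order was Mgst1, Gstp1, Gstm1, Gsta3, Gstt1, Gstm5, Gsta4, Gstm2, Gstm3 and Gsta2. There Mgst1 overlapped Gstp1, Gstp1 overlapped Gstm1, Gstt1 overlapped Gstm5, and Gstm2 overlapped Gstm3. Gstm5 was thus lowest of the 10 in early and sixth in BEC and full, and Gsta2 was sixth in early and lowest in the other 3 groups, where it overlapped Gstm2 in intermediate.

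**Figure D4:**
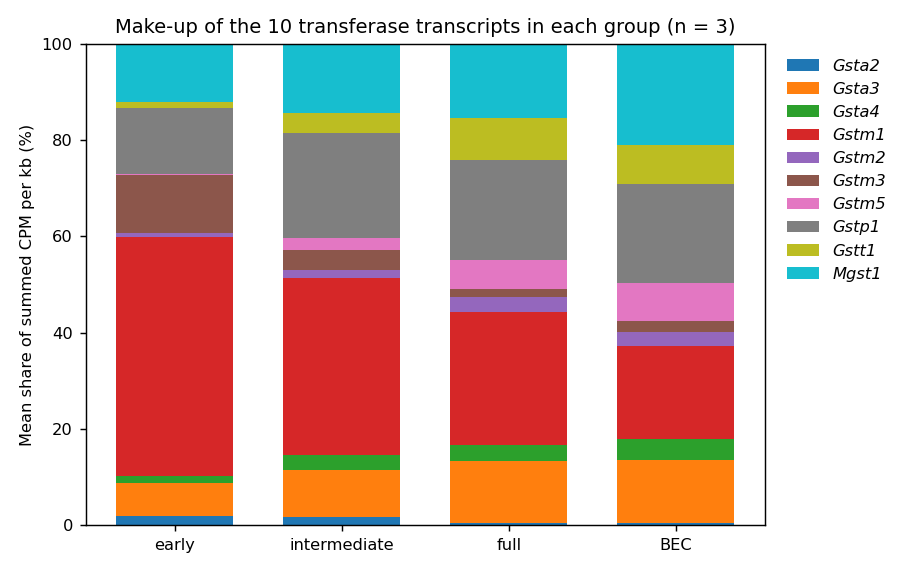
Mean share (%, stacked) of each gene in the summed CPM per kilobase of the 10 transferases, per group (3 libraries each; SDs are in the text). The Gstm1 share falls from 49.5% in early to 19.3% in BEC, and those of Mgst1, Gstt1 and Gstm5 widen.

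Patterns were compared over the 12 libraries as Pearson's r of log2 CPM, which mostly reflects the 4 group means that all genes share, so r is a description. Among the 16210 genes, the closest to Gstm1 was Cyb5a (r = 0.999), to Gstm3 Hpd (0.999), to Gstp1 Acaa2 (0.998), to Mgst1 Psen2 (0.999), to Gsta3 Galm (0.998), to Gsta2 Pcyt2 (0.996), to Gsta4 Sema4g (0.996), to Gstt1 Mmp19 (0.994), to Gstm2 Tmem143 (0.991) and to Gstm5 Cryzl1 (0.962). Within the 10 genes, Gstm1 and Gstp1 were closest to each other (0.993), and Gstm5 had a negative r with each of the others, between -0.81 with Gstm2 and -0.66 with Gsta2.

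The rest of the transferase family mostly fell too. Of 20 further genes listed, 19 were in the table and 15 passed the filter, which a gene can pass through 1 high group alone. At the first step 13 of these 15 fell and 2 rose, at the second 10 fell and 2 rose, and between full and BEC 5 were lower and 2 higher in BEC. Of all genes, 25.7%, 19.8% and 10.6% were lower and 28.7%, 20.8% and 10.7% higher at these comparisons. Gstm4 fell at the first step from 180 ± 14.4 to 30.8 ± 4.88 CPM (-2.55 on the log2 scale, SE 0.13, adjusted p 3.07e-09 in edgeR) and Gsta1 from 146 ± 11.3 to 19.8 ± 2.11 CPM (-2.87, SE 0.22, adjusted p 1.35e-07 in edgeR; SD, n = 3 each). Mgst2, a membrane-bound enzyme that also makes leukotriene C4, rose from a very low level. It had 9, 0 and 3 counts in early and 44, 20 and 25 in intermediate (edgeR adjusted p 0.0117). Its log2 fold change was 2.38 with all libraries and 3.70 without early replicate 1.

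Some relatives separated BEC from full cells. Gsto1 is an omega-class enzyme with thioltransferase activity. It was 111 ± 15.9 CPM in early, 45.1 ± 3.83 in intermediate, 26.9 ± 2.68 in full and 49.4 ± 1.49 in the BEC group (SD, n = 3 each). BEC thus lay above full (log2 fold change 0.88, SE 0.11, adjusted p 7.52e-05 in edgeR) and below early. Gstt3, a neighbour of Gstt1, was 26.5 ± 1.63 CPM in early, 9.03 ± 0.527 in intermediate, 13.1 ± 1.58 in full and 24.2 ± 3.595 in the BEC group (SD, n = 3 each), and rose at both later comparisons (log2 fold changes 0.54 and 0.88, edgeR adjusted p 0.00613 and 0.000238). Gstm6, in the mu cluster, was 25.3 ± 4.17 CPM in full and 6.96 ± 0.432 in BEC (-1.86, SE 0.12, adjusted p 2.14e-07 in edgeR; SD, n = 3 each).

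Genes that supply glutathione fell with the transferases. Of 7 synthesis genes, 6 fell at the first step and 5 at the second, none rose, and 2 were lower in BEC than in full, where 25.7%, 19.8% and 10.6% of all genes were lower and 28.7%, 20.8% and 10.7% higher. Their median log2 fold changes were -1.19, -1.09 and -0.40. Cth, which makes cysteine from cystathionine, fell from 370 ± 23.7 to 36.3 ± 7.47 CPM at the first step and to 4.99 ± 1.49 at the second (log2 fold changes -3.35 and -2.87, edgeR adjusted p 4.31e-08 and 7.91e-07; SD, n = 3 each). Gclc, the catalytic subunit of the rate-limiting enzyme, fell at the second step from 582 ± 31.1 to 180 ± 19.8 CPM (-1.69, SE 0.21, adjusted p 2.87e-05 in edgeR; SD, n = 3 each). In early it had 1846, 1167 and 899 CPM. Slc7a11, the cystine importer, had 165, 48.2 and 33.1 CPM in early, with replicate 1 far above the others, against 21.8, 11.5 and 9.06 in intermediate. Its log2 fold change was -2.55 (SE 0.53, adjusted p 0.00102 in edgeR) and -1.53 without early replicate 1 (edgeR adjusted p 0.00394). In early replicates 1, 2 and 3 the 10 transferase genes together held 1.18%, 1.28% and 1.21% of all counts. In CPM the order of these libraries differed between the members.

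Genes that recycle glutathione or use it as a cofactor were mixed. Of 12, 8 fell and 1 rose at the first step (25.7% and 28.7% of all genes), 6 fell and 2 rose at the second (19.8% and 20.8%), and 3 were lower and 1 higher in BEC than in full (10.6% and 10.7%). With the replicate block the last count was 5 lower and 3 higher, since Glo1 and Txnrd1 (lower) and Glrx and Hagh (higher) then passed (largest edgeR adjusted p 0.0408). Gpx1, the abundant cytosolic glutathione peroxidase, fell from 2169 ± 269 to 822 ± 77.5, 317 ± 42.5 and 203 ± 12.2 CPM along the 4 groups (SD, n = 3 each), with a call at each step (log2 fold changes -1.40, -1.37 and -0.65, largest edgeR adjusted p 0.00201). Gpx2, the gastrointestinal glutathione peroxidase, took another course. It had 13.5, 9.82 and 8.58 CPM in early, 3.46, 3.23 and 3.11 in intermediate, 10.1, 5.75 and 6.08 in full and 58.4, 47.3 and 52.1 in BEC, 7.18-fold above full (2.84, SE 0.21, adjusted p 5.95e-07 in edgeR).

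Of 14 genes for glutathione breakdown and mercapturate formation, 12 were tested. At the first step 8 fell and 2 rose (25.7% and 28.7% of all genes), at the second 6 fell and 2 rose (19.8% and 20.8%), and 3 were lower and 2 higher in BEC than in full (10.6% and 10.7%). Ggt1, the surface enzyme that removes glutamate from glutathione conjugates, stood at 1.34 ± 0.273 CPM in early cells, 4.08 ± 0.569 in intermediate cells, 8.60 ± 0.944 in full cells and 14.98 ± 0.729 in the BEC group (SD, n = 3 each). It rose at each step (log2 fold changes 1.60, 1.08 and 0.80, edgeR adjusted p 2.70e-05, 0.000215 and 0.00244). Lap3, a leucine aminopeptidase that cleaves cysteinylglycine, fell from 161 ± 8.89 CPM in intermediate to 63.2 ± 6.91 in full and 29.4 ± 4.07 in BEC (-1.34 and -1.11, edgeR adjusted p 9.12e-07 and 1.21e-05; SD, n = 3 each).

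Of 7 exporters listed, 3 fell and 2 rose at the first step, 2 fell and 2 rose at the second, and 3 were lower and 1 higher in BEC than in full. The shares of all genes were 25.7% lower and 28.7% higher at the first step, 19.8% and 20.8% at the second, and 10.6% and 10.7% in BEC against full. Of the 3 falls at the first step, that of Abcg2 was weak (-0.43, edgeR adjusted p 0.0458). It changed sign with total counts only (0.24) and lost its call without any 1 of several libraries (early replicate 3, for example, edgeR adjusted p 0.134). Abcc2, the canalicular pump for glutathione conjugates, fell from 1523 ± 97.2 to 563 ± 73.6, 236 ± 31.6 and 46.5 ± 8.75 CPM along the groups (log2 fold changes -1.44, -1.25 and -2.35, largest edgeR adjusted p 1.60e-05; SD, n = 3 each). Abcc1, a related pump of many non-hepatocyte cells, had 17.0, 6.27 and 4.37 CPM in early, 28.7, 24.0 and 17.5 in intermediate, 57.4, 66.6 and 57.2 in full and 83.4, 81.4 and 79.0 in BEC. It rose at the first 2 steps (1.33 and 1.37, edgeR adjusted p 0.00452 and 0.00288), and the first value was 2.15 without early replicate 1.

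Of 14 factors known to control transferase genes, 9 fell and 2 rose at the first step, 5 fell and 1 rose at the second, and 5 were lower and 1 higher in BEC than in full. Of all genes, 25.7%, 19.8% and 10.6% were lower at these comparisons and 28.7%, 20.8% and 10.7% higher. The fallers included nuclear receptors. Nr1i3, the receptor CAR that responds to drugs, fell from 40.0 ± 13.4 to 2.92 ± 1.02 CPM at the first step and to 0.377 ± 0.0628 at the second (log2 fold changes -3.78 and -2.93, edgeR adjusted p 2.59e-07 and 9.55e-05; SD, n = 3 each). Ppara fell from 134 ± 23.2 to 37.9 ± 7.52 and 6.71 ± 0.842 CPM at these steps (-1.83 and -2.50, edgeR adjusted p 2.50e-06 and 7.62e-07; SD, n = 3 each). Nfe2l2, the gene of Nrf2, rose from 152 ± 12.9 to 213 ± 10.1 CPM at the first step (0.49, SE 0.10, adjusted p 0.000867 in edgeR; SD, n = 3 each), in the same comparison in which 9 of the 10 transferases fell. Ahr, the receptor for dioxins, was 135 ± 13.3 CPM in early, 70.8 ± 2.58 in intermediate, 102 ± 3.64 in full and 203 ± 15.6 in the BEC group (SD, n = 3 each), a rise at both later comparisons (0.52 and 1.002, edgeR adjusted p 0.000451 and 3.78e-06). These are transcript levels and do not measure the activity of the factors.

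**Figure D5:**
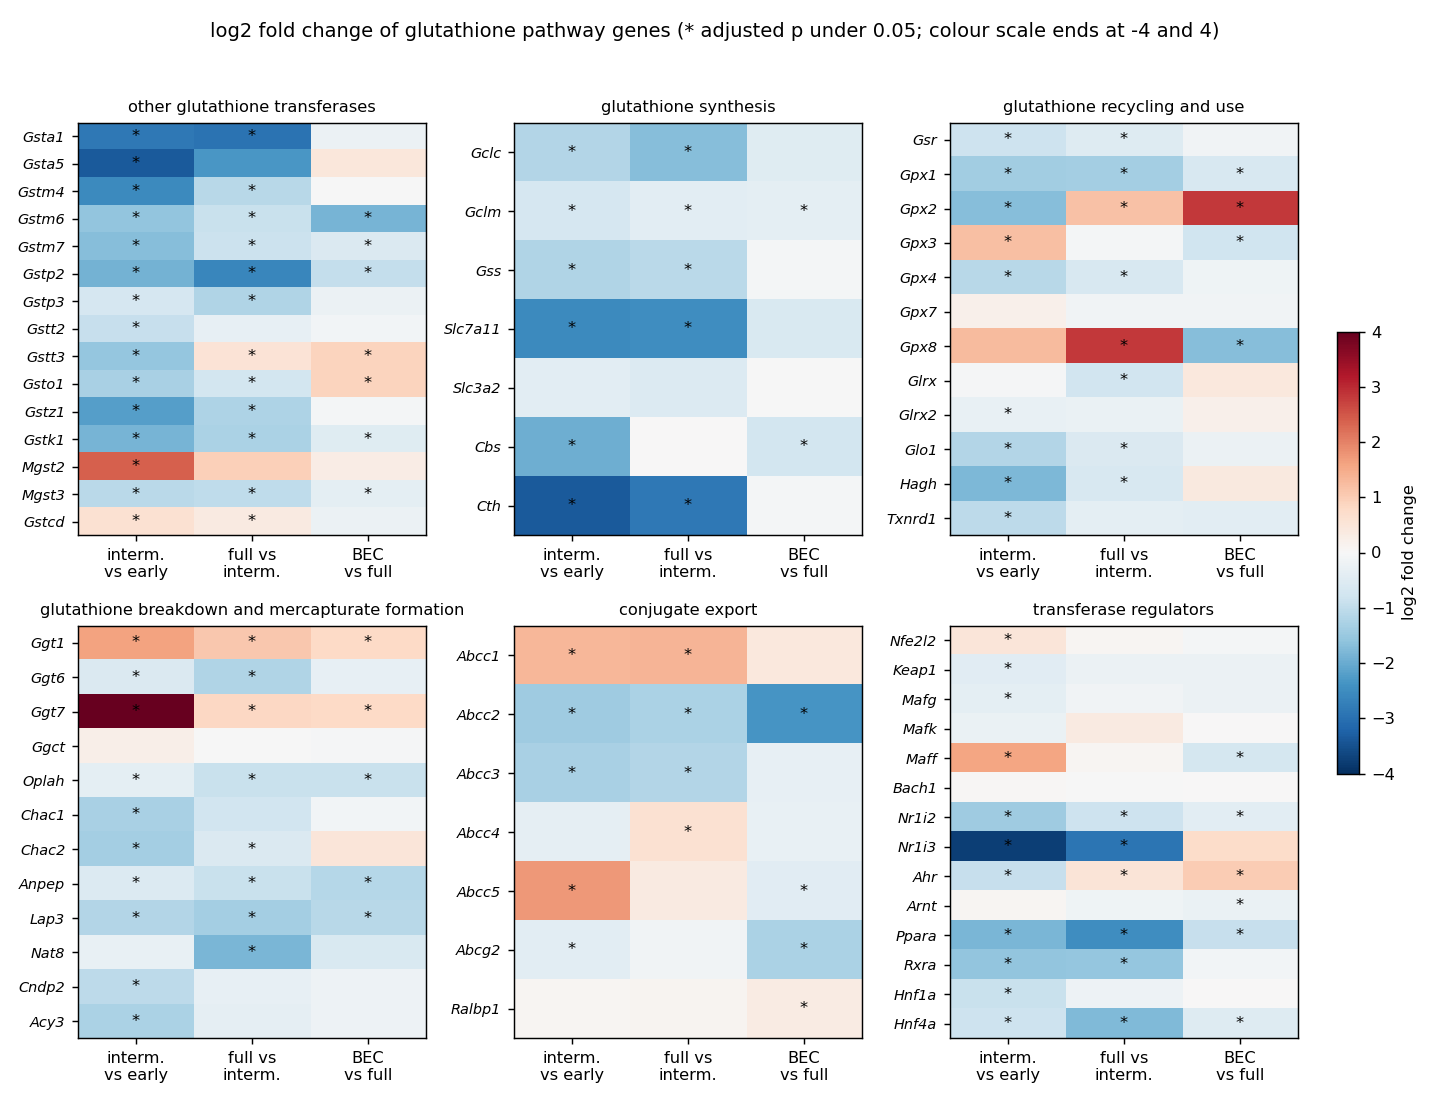
log2 fold change (colour, edgeR) of the tested genes of 6 lists at the 3 successive comparisons, with stars where the adjusted p is under 0.05. Blue (lower) prevails in the transferase and synthesis panels, while Gpx2, Ggt1, Ggt7 and Abcc1 hold red (higher) cells.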

How the data were processed

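RNA-seq was measured in 12 libraries, 3 in each of 4 groups taken from the sample titles. The authors deposited raw counts per gene symbol, made with STAR 2.7.10b and featureCounts 2.0.1 on GRCm39, per the submitters' processing notes. Annotation, strandedness and read length are not given in the sources used here. A second deposited table holds a signal, which equals these counts after division by a size factor for each library, and served only as a check.

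Genes were kept by filterByExpr (16210 of 53599), scaled by TMM factors and tested in 1 fit of all 12 libraries with 1 term per group by edgeR's quasi-likelihood test (edgeR 4.0.16, R 4.3.3), with Benjamini-Hochberg adjustment over all genes tested and calls under 0.05. SE is the absolute log2 fold change divided by the square root of F. CPM divides by library size times TMM factor. A prior count of 2 was used for log2 CPM. A floor of 3 counts corresponds to 0.128 to 0.273 CPM, for counting error only. Coding identity used global alignment in Biopython 1.88. On simulated counts for full against early (16210 genes, 200 given a true log2 difference of 1), 85% were recovered and 2.86% of calls were genes left unchanged. The simulation gave all libraries 1 shared profile and split the changes evenly up and down. In the real comparison 71.2% of genes were called, so these values do not give its error rate.

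The genes and lists were chosen with earlier results of these data known. Beside the 10 genes, most pathway genes described were drawn from the called genes of each list with the largest changes, up to 3 per direction and comparison. Only some of these are described, and a larger change may be left out. At the first step, for example, Ggt1 (1.60) is described and Ggt7 (4.03) is not. For each member the gene of highest r is named. The TATA box and AP-1 searches were added after the data had been seen. Coding sequence identity replaced the planned protein identity. Same-numbered libraries deviated together, and their r lay between 0.121 and 0.293 for intermediate and early, 0.137 to 0.322 for full and intermediate, and 0.170 to 0.257 for BEC and full, so the numbers of the titles pair the libraries there. For full and early 1 pair had 0.0960. What the number marks is not stated. Replicates differed beyond counting error (chi-square per degree of freedom at least 5.23). Alternatives covered DESeq2 1.42.0, scaling, filtering, fits of 6 libraries, the replicate block, summed copies and leaving out each library.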

Additional observations from a re-analysis of the deposited data

How the results depend on the processing

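Of 760 recomputed log2 fold changes of the 10 genes, 736 kept their direction and their side of the threshold, 13 passed it newly, 2 no longer passed it and 9 changed sign. With total counts only, Gstt1 changed sign in intermediate against early (0.24) and full against early (0.11), Gstm5 in full against intermediate (0.044), and Abcg2, an exporter, in intermediate against early (0.24) and full against early (0.28). The sign changes without 1 library were all between BEC and full, and none was called. There, leaving out 1 library moved Gsta2 between -0.22 and 0.097, Gsta4 between -0.021 and 0.19, Gstm3 between -0.16 and 0.23 and Gstm5 between -0.018 and 0.12. Gsta2, Gsta4 and Gstm5 changed sign without BEC replicate 1, and Gstm3 without full replicate 1 (-0.052), full replicate 2 (-0.013) or BEC replicate 3. With no filter on low counts, 5 of the 10 genes were called between BEC and full, against 3, with Gsta3 and Gstm2 added; the cause was not tested. Leaving out 1 library gave 7 to 9 called genes in full against intermediate, 3 to 4 in BEC against full and 10 in the other 2 pairs of groups.

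The replicate block added 2 calls among the 10 genes, Gstm2 in full against intermediate (-0.50, edgeR adjusted p 0.0274) and Gsta3 in BEC against full (-0.34, edgeR adjusted p 0.0201), and changed no other call among them. Among the 6 pathway lists, the block moved the number of called genes by more than 1.5 times for glutathione recycling and use in BEC against full (1 higher and 3 lower without it, 3 higher and 5 lower with it) and in no other case. Low counts limit Gsta2 in full and BEC, at 44 to 85 counts per library.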
